A study of Mus musculus with 8 samples.

Results

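The HIF subunits and the oxygen-sensing hydroxylases were followed in quadriceps muscle of mice after sustained low oxygen. The members were 9 genes: the alpha subunits Hif1a, Epas1 and Hif3a, the beta subunit Arnt, the prolyl hydroxylases Egln1, Egln2 and Egln3, the asparaginyl hydroxylase Hif1an, and Vhl. Every probe set that the array annotation pairs with exactly 1 of these symbols was taken, which gave 27 of the 45101 probe sets on the array. A probe set is a group of short oligonucleotides that reads the 3' part of a transcript, and its value is the MAS5 signal, a background-corrected intensity on a linear scale. The animals were adult male C57Bl/10 mice, and 8 RNA samples were hybridised to 1 Affymetrix mouse array each. The 4 Control samples came from mice held in room conditions over 2 weeks. The 4 Hypoxia samples came from mice in a sealed chamber whose oxygen was lowered from 21% to 8% during 1 week and then held at 8% for another 7 days. The labels describe the chamber for the hypoxic animals alone, so chamber and oxygen cannot be told apart, and the labels do not state that each sample is a different animal, so the tests measure the spread between these samples.

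Cells read oxygen through the HIF alpha subunits. In the presence of oxygen, iron and 2-oxoglutarate the Egln enzymes hydroxylate prolines of the alpha subunit, the ubiquitin ligase that contains Vhl then binds it, and the proteasome degrades it. Hif1an hydroxylates an asparagine that otherwise lets the alpha subunit bind the coactivators Crebbp and Ep300. When oxygen is low the alpha subunit persists, pairs with Arnt and binds hypoxia response elements. Much of this control acts on protein stability and enzyme activity, which arrays do not measure, and the values here are transcript levels in a whole muscle, where fewer cells of a type and less RNA per cell cannot be told apart.

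On their brightest probe sets Egln3 was higher and Hif1an was lower after hypoxia, while those of Hif1a, Epas1, Hif3a, Arnt, Egln1, Egln2 and Vhl did not pass the test. Egln3 rose 4.62-fold on its brightest probe set. Hif1an fell 2.31-fold on its brightest, but its probe set designed on another sequence did not follow. Of the 27 member probe sets, 22 passed a filter that left out the 40% of probe sets with the lowest mean. Of these 22, limma called 2 higher and 4 lower at an adjusted p of 0.05, and 16 were not called. Over the whole array 28.8% of the tested probe sets were called, 12.5% higher and 16.4% lower, so the members as a group were called about as often as probe sets in general. The 6 calls lay in 4 genes: both probe sets of Egln3, 2 of 3 for Hif1an (1 of them dim), 1 of 5 for Arnt and 1 of 3 tested for Hif1a. The groups did not overlap in 7 of the 22 probe sets, against 30.1% of all tested probe sets. Read by the brightest probe set alone, 1 member gene was higher, 1 was lower and 7 were not called, against 31.9% of the 13257 genes tested in this way that were called. A change is the mean log2(signal + 16) in hypoxia less that in control, and its standard error (SE) is that of the limma model. Signals of different probe sets cannot be compared with each other.

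**Figure D1:**
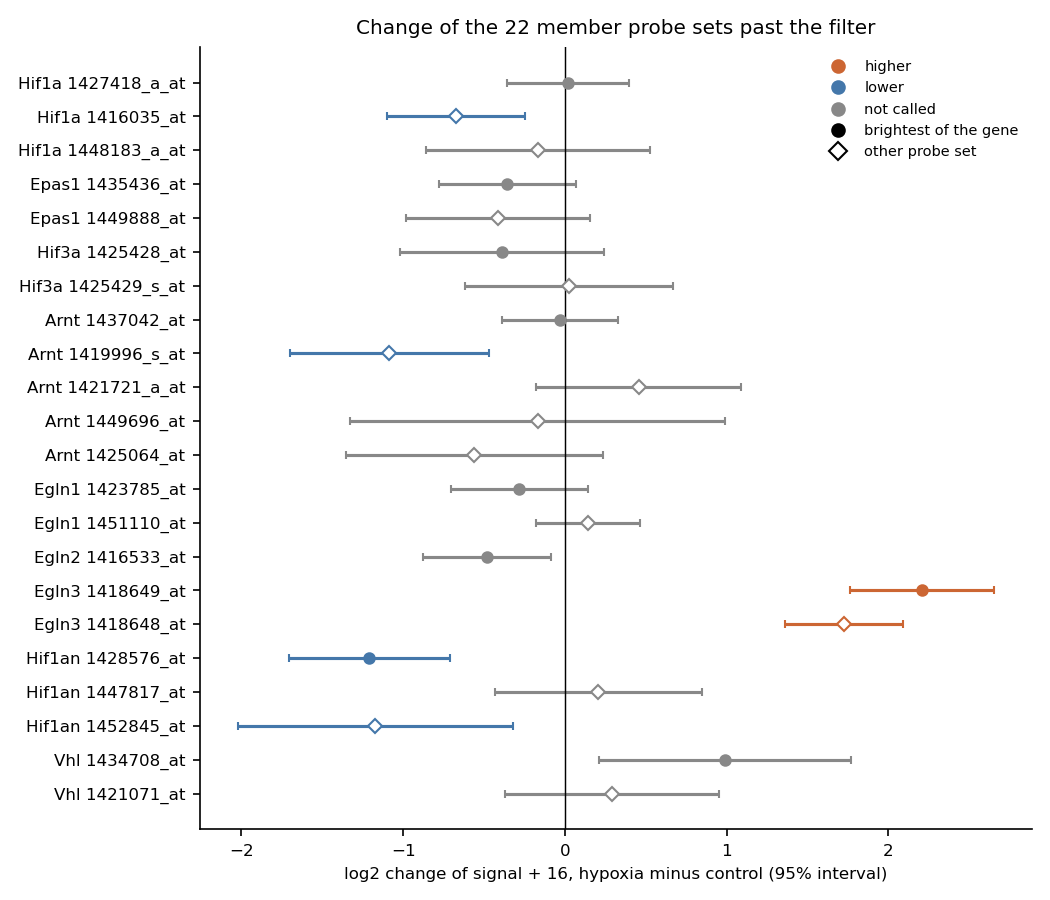
The log2 change of hypoxia minus control (x axis, signal plus 16) is plotted for the 22 member probe sets past the filter (y axis), with 95% intervals from limma. Filled circles mark the brightest probe set of a gene and open diamonds its others. Both Egln3 probe sets lie at 1.73 and 2.21, and the 4 probe sets called lower lie between -1.21 and -0.67.

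Egln3 encodes a prolyl hydroxylase whose gene is known as a target of HIF. On its brightest probe set the control signals were 1333, 789, 1503 and 1066, and the hypoxia signals were 6775, 4799, 4548.5 and 5429. The lowest hypoxia signal was well above the highest control signal, and the arrays of each group lay close together relative to the gap. The change was 2.21 ± 0.21 (SE, n = 4 per group, adjusted p = 9.76e-06 by limma), a 4.62-fold rise with a 95% interval from 3.39 to 6.29. On the other probe set the control signals were 645, 518, 652.5 and 599, and the hypoxia signals were 2174, 1685, 1808 and 2537.5. This probe set also separated the groups without overlap, with a change of 1.73 ± 0.17 (SE, adjusted p = 1.45e-05 by limma). Both probe sets were designed on the same sequence, so they are not independent readings. Among all genes tested by their brightest probe set, 1.92% changed by at least as much as Egln3 in either direction.

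Egln1 and Egln2, the other prolyl hydroxylases, did not pass the test. Egln1, the enzyme regarded as the main one that marks Hif1a for degradation, had control signals of 4941, 5782, 4326.5 and 5124 and hypoxia signals of 5463, 3719, 2878 and 4946 on its brightest probe set. The groups overlapped, and the hypoxia arrays spread more widely than the control arrays. The change was -0.28 ± 0.20 (SE, n = 4 per group, adjusted p = 0.316 by limma), with a 95% interval from -0.71 to 0.14. Without hypoxia 3 it was -0.11. Its other probe set, designed on the same sequence, averaged 1162 ± 139 in control and 1279 ± 97.9 in hypoxia (SD) and changed by 0.14 ± 0.15, so the estimates of Egln1 differ in sign and neither passed. Egln2 had 1 probe set, with control signals of 1544, 2002, 1852 and 2274 and hypoxia signals of 1010.0, 1377.5, 1660.3 and 1457.5. Its hypoxia signals were mostly below the control signals, but hypoxia 3 lay above control 1. The change was -0.48 ± 0.18 (SE) and missed the threshold (adjusted p = 0.0659 by limma). Without control 1 it was -0.58 and passed (adjusted p = 0.0474 by limma), as it did without hypoxia 3 (-0.58, adjusted p = 0.0361 by limma).

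The paralogues were compared within each array. The difference between the log2 values of Egln1 and Egln3 moved by -2.49 ± 0.30 (SE, n = 4 per group) from control to hypoxia, and that between Egln2 and Egln3 by -2.69 ± 0.39. In both, all 4 hypoxia arrays lay below all 4 control arrays, and the exact permutation test (two-sided) gave p = 0.0286, which is the smallest that 70 splits of 4 against 4 allow. Adjusted over the 6 pairs compared, p was 0.0857 for both by the exact permutation test, above 0.05. With only 2 of the 6 pairs at the smallest p, no adjusted p could be under 0.05, so this threshold cannot decide here. Egln1 and Egln2 differed in change by 0.20 ± 0.36 (SE, n = 4 per group, adjusted p = 0.754 by the exact permutation test), and without hypoxia 1 the sign of this difference turned (-0.073).

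Hif1an, the asparaginyl hydroxylase also called FIH, was lower after hypoxia on its brightest probe set, which gave control signals of 1447, 1748, 1931 and 2236, and hypoxia signals of 512, 842.5, 1153 and 729.9. The highest hypoxia signal, in hypoxia 3, was below the lowest control signal, in control 1. The change was -1.21 ± 0.23 (SE, n = 4 per group, adjusted p = 0.00176 by limma), a 2.31-fold fall with a 95% interval from 1.64 to 3.27. A dim probe set designed on the same sequence was also called lower, but its hypoxia signals were all under the filter signal of 90.2, so it passed the filter only through the control group and adds no support. It gave 154, 169.8, 73.7 and 220.1 in control against 66.3, 58.8, 68.8 and 33.4 in hypoxia. Its groups did not overlap, by the margin between control 3 and hypoxia 3, and it changed by -1.17 ± 0.39 (SE, adjusted p = 0.0398 by limma). That call is not firm: it was lost after quantile normalization (adjusted p = 0.0621) and without any of 5 single arrays, controls 1, 2 and 4 and hypoxia 2 and 4 (adjusted p from 0.0695 to 0.137, changes from -1.20 to -0.99, all by limma). The remaining probe set, designed on another sequence, gave 106.8 to 183.7 in control and 105.4 to 240.2 in hypoxia and did not pass (0.20 ± 0.29). Its 95% interval, from -0.44 to 0.84, does not reach the -1.21 of the brightest probe set. The fall thus rests on the brightest probe set, and the change of Hif1an is uncertain across probe sets. Of the tested genes 10.3% changed by at least as much as its brightest probe set did.

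**Figure D2:**
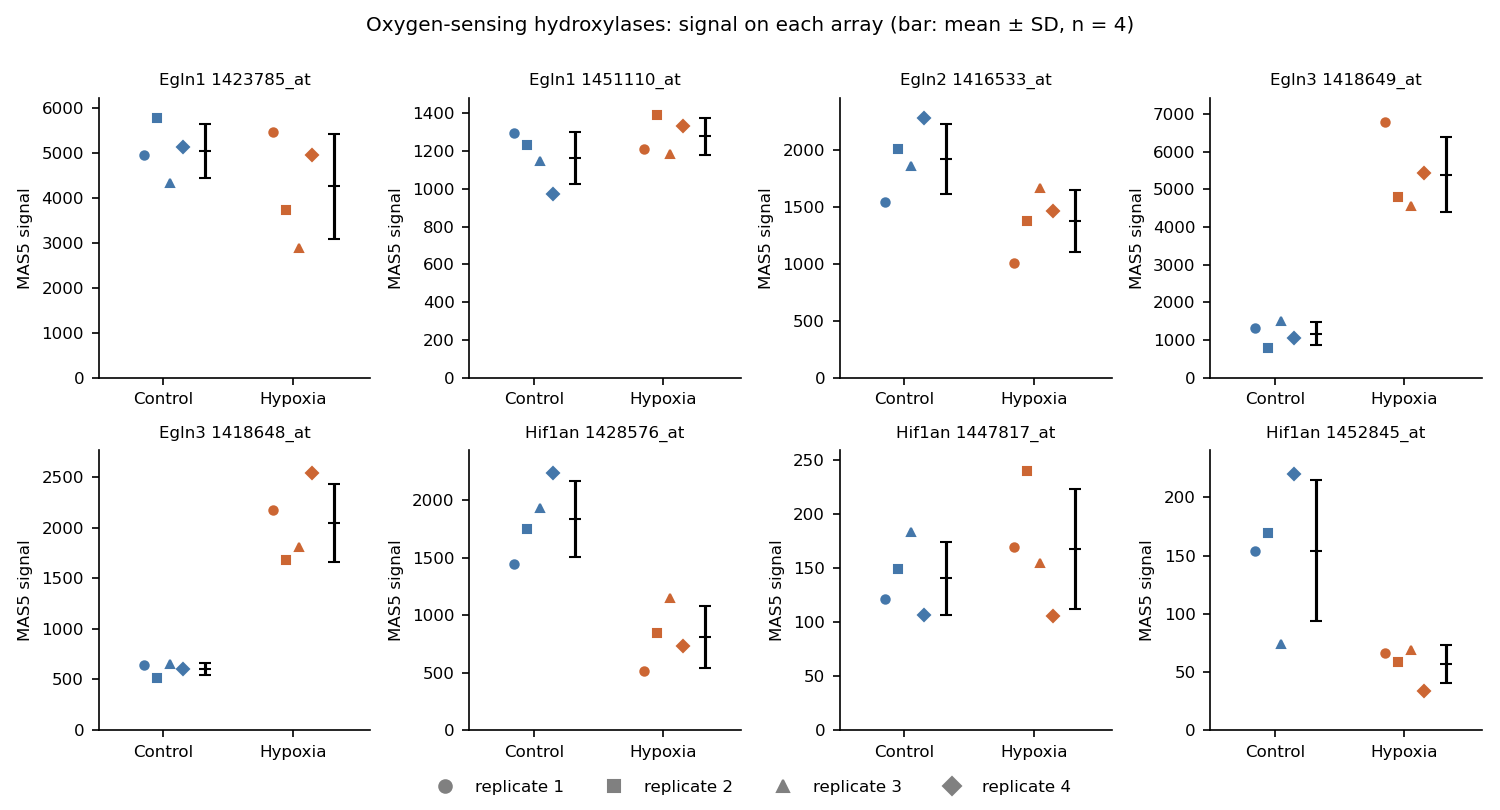
MAS5 signal (y axis, linear, from 0) of each array is plotted for the 8 probe sets of Egln1, Egln2, Egln3 and Hif1an in control and hypoxia (x axis), with the replicate number as the symbol and the mean ± SD of 4 arrays beside each group. Both Egln3 panels show the hypoxia arrays above all controls, from 1685 against at most 652.5 and from 4548.5 against at most 1503, and the first Hif1an panel shows them below all controls, at most 1153 against at least 1447.

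The promoter sequences of the hydroxylases with the largest rise and fall, and of Egln1 for comparison, are shown because HIF binds the core letters ACGTG or GCGTG of a hypoxia response element. The windows run from 250 bases before to 50 bases after a transcript start, from RefSeq on the mouse build GRCm38.p6, 5′ to 3′ along the gene, with ACGTG on either strand in capitals. The Egln3 window is chr12:54203825-54204124 (minus strand), that of Egln1 is chr8:124949205-124949504 (minus strand) and that of Hif1an is chr19:44562604-44562903 (plus strand).
Egln3: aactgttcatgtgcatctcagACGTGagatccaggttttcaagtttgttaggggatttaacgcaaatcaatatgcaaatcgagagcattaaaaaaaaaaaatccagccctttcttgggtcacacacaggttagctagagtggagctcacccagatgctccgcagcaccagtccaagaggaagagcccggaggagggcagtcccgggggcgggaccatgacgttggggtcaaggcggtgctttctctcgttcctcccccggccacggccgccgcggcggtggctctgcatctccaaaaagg
Egln1: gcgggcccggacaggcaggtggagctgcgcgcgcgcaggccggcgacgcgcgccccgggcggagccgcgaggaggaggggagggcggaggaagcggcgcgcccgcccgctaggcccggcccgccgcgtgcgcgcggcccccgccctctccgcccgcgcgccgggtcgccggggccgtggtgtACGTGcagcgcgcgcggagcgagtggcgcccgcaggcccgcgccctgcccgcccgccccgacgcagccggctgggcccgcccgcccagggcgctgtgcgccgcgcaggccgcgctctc
Hif1an: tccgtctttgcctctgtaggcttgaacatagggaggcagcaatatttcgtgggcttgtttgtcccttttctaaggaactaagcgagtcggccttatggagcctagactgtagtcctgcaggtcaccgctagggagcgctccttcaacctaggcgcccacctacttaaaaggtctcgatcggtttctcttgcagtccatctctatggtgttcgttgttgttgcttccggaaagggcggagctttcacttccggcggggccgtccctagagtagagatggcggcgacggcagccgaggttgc
ACGTG occurred once in the Egln3 window, 229 bases before the start, and once in the Egln1 window, 68 bases before it, while the Hif1an window held neither ACGTG nor GCGTG on either strand. Among the 8 member genes in the promoter table, 4 had ACGTG in their window: Hif1a, Egln1, Egln2 and Egln3. Of all 32851 windows of the same length, 19.6% held ACGTG, 32.4% held GCGTG and 43.8% held either. On a palindromic CACGTG the strands give overlapping matches, as in the windows of Hif1a and Egln2. These matches describe the letters of the windows only. The Egln1 window also held GCGTG once, and GCGTG occurred in the windows of Arnt, Hif3a and Egln2 too. The Vhl window, like that of Hif1an, held neither core. Whether the letters bear on the changes of the transcripts was not tested.

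Hif1a encodes the alpha subunit present in most cell types. Its brightest probe set read 1389, 1372.5, 1454 and 1661 in control and 1948, 1249, 1623.5 and 1227 in hypoxia. The hypoxia values lay on both sides of the control values. The change was 0.019 ± 0.17 (SE, n = 4 per group, adjusted p = 0.952 by limma), with a 95% interval from -0.36 to 0.40. A second, dimmer probe set read 412.6, 312.9, 333.6 and 414.8 in control and 218.8, 183.9, 267.6 and 230.8 in hypoxia. Here all hypoxia arrays were below all control arrays, and the change was -0.67 ± 0.20 (SE, adjusted p = 0.0217 by limma). This call was lost without control 1, control 4 or hypoxia 2 (adjusted p = 0.0606, 0.0653 and 0.0642 by limma). Another probe set did not pass (-0.17 ± 0.32), and the last was below the filter, so the probe sets of Hif1a disagree and its change is uncertain.

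Epas1 encodes the alpha subunit that is abundant in endothelium. Its brightest probe set read 10246.5, 9927, 11142 and 8715 in control and 9609, 5289, 7093 and 10124 in hypoxia. Hypoxia 2 and 3 were below every control array, and hypoxia 1 and 4 were within the control range. The change was -0.36 ± 0.20 (SE, n = 4 per group, adjusted p = 0.197 by limma), with a 95% interval from -0.78 to 0.07. Without hypoxia 2 it was -0.17. The other probe set, at 337 ± 83.9 in control and 251 ± 79.1 in hypoxia (SD), changed by a like amount, -0.41 ± 0.26 (SE), and missed the threshold as well (adjusted p = 0.267 by limma). Among 12 endothelial marker genes, 3 were called lower (Eng, Cldn5 and Egfl7) and none higher, and their summed signal was 10236 to 15528 in control and 7816 to 13176 in hypoxia. The count was 1 without control 1, control 2 or hypoxia 2, and 5 with array weights. The part of endothelial content in the Epas1 values was not tested.

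Hif3a, whose transcripts include forms that oppose the other alpha subunits, had 6 probe sets, of which 4 were below the filter with mean signals of at most 34.6 in either group. Its brightest probe set read 254.5, 481.1, 507.5 and 244.3 in control and 176.7, 271.3, 373.1 and 271.9 in hypoxia. Controls 1 and 4 were low and controls 2 and 3 high, and 3 of the 4 hypoxia arrays lay between them. The groups overlapped, and the change was -0.39 ± 0.29 (SE, n = 4 per group, adjusted p = 0.351 by limma), or -0.21 without hypoxia 1 and -0.22 without control 3. The second tested probe set, which was designed on the same sequence and can also bind related transcripts, changed by 0.024 ± 0.30. The 3 alpha subunits were compared in pairs by their brightest probe sets. The difference of changes was 0.38 ± 0.26 for Hif1a minus Epas1, 0.41 ± 0.44 for Hif1a minus Hif3a and 0.032 ± 0.43 for Epas1 minus Hif3a (SE, n = 4 per group, adjusted p from 0.457 to 0.971 by the exact permutation test). The sign of the last turned under quantile normalization (-0.15).

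Arnt encodes the shared beta subunit, which pairs with each alpha subunit and with the aryl hydrocarbon receptor. Its brightest probe set read 790.1, 654.2, 734.6 and 719.9 in control and 836.6, 593.3, 780.0 and 644.4 in hypoxia. The groups had nearly the same mean, 725 ± 55.9 and 714 ± 114 (SD), and the change was -0.032 ± 0.16 (SE, n = 4 per group, adjusted p = 0.910 by limma), with a sign that flipped under quantile normalization (0.083) and median centring (0.051). Another probe set, which can also bind related transcripts, read 749.0, 532.1, 592.5 and 466.7 in control against 139.4, 402.5, 327.1 and 256.5 in hypoxia. All 4 hypoxia arrays were below the control arrays there, with hypoxia 1 lowest, and the change was -1.09 ± 0.28 (SE, adjusted p = 0.0120 by limma). Without hypoxia 1 it was -0.80 (adjusted p = 0.0150 by limma). The remaining 3 probe sets changed by 0.46 ± 0.29, -0.17 ± 0.53 and -0.56 ± 0.37 (SE) and did not pass. That at -0.17 was designed on the same sequence as the one called lower, so the change of Arnt is uncertain.

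Vhl encodes the part of the ubiquitin ligase that recognises hydroxylated HIF. Its brightest probe set read 309.6, 200.6, 64.1 and 253.6 in control and 369.4, 388.4, 351.9 and 395.1 in hypoxia. All hypoxia arrays were above all control arrays, and the hypoxia arrays lay within a narrow range while control 3 was far below the others. The change of 0.99 ± 0.36 (SE, n = 4 per group) missed the threshold (adjusted p = 0.0568 by limma). It passed after quantile normalization (1.11, adjusted p = 0.0332) and without control 1 (1.23, adjusted p = 0.0277), and without control 3 it was 0.55 and did not pass (adjusted p = 0.0767, all by limma). The second probe set read 93.6 to 250.4 in control and 138.3 to 248.7 in hypoxia and did not pass (0.29 ± 0.30).

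**Figure D3:**
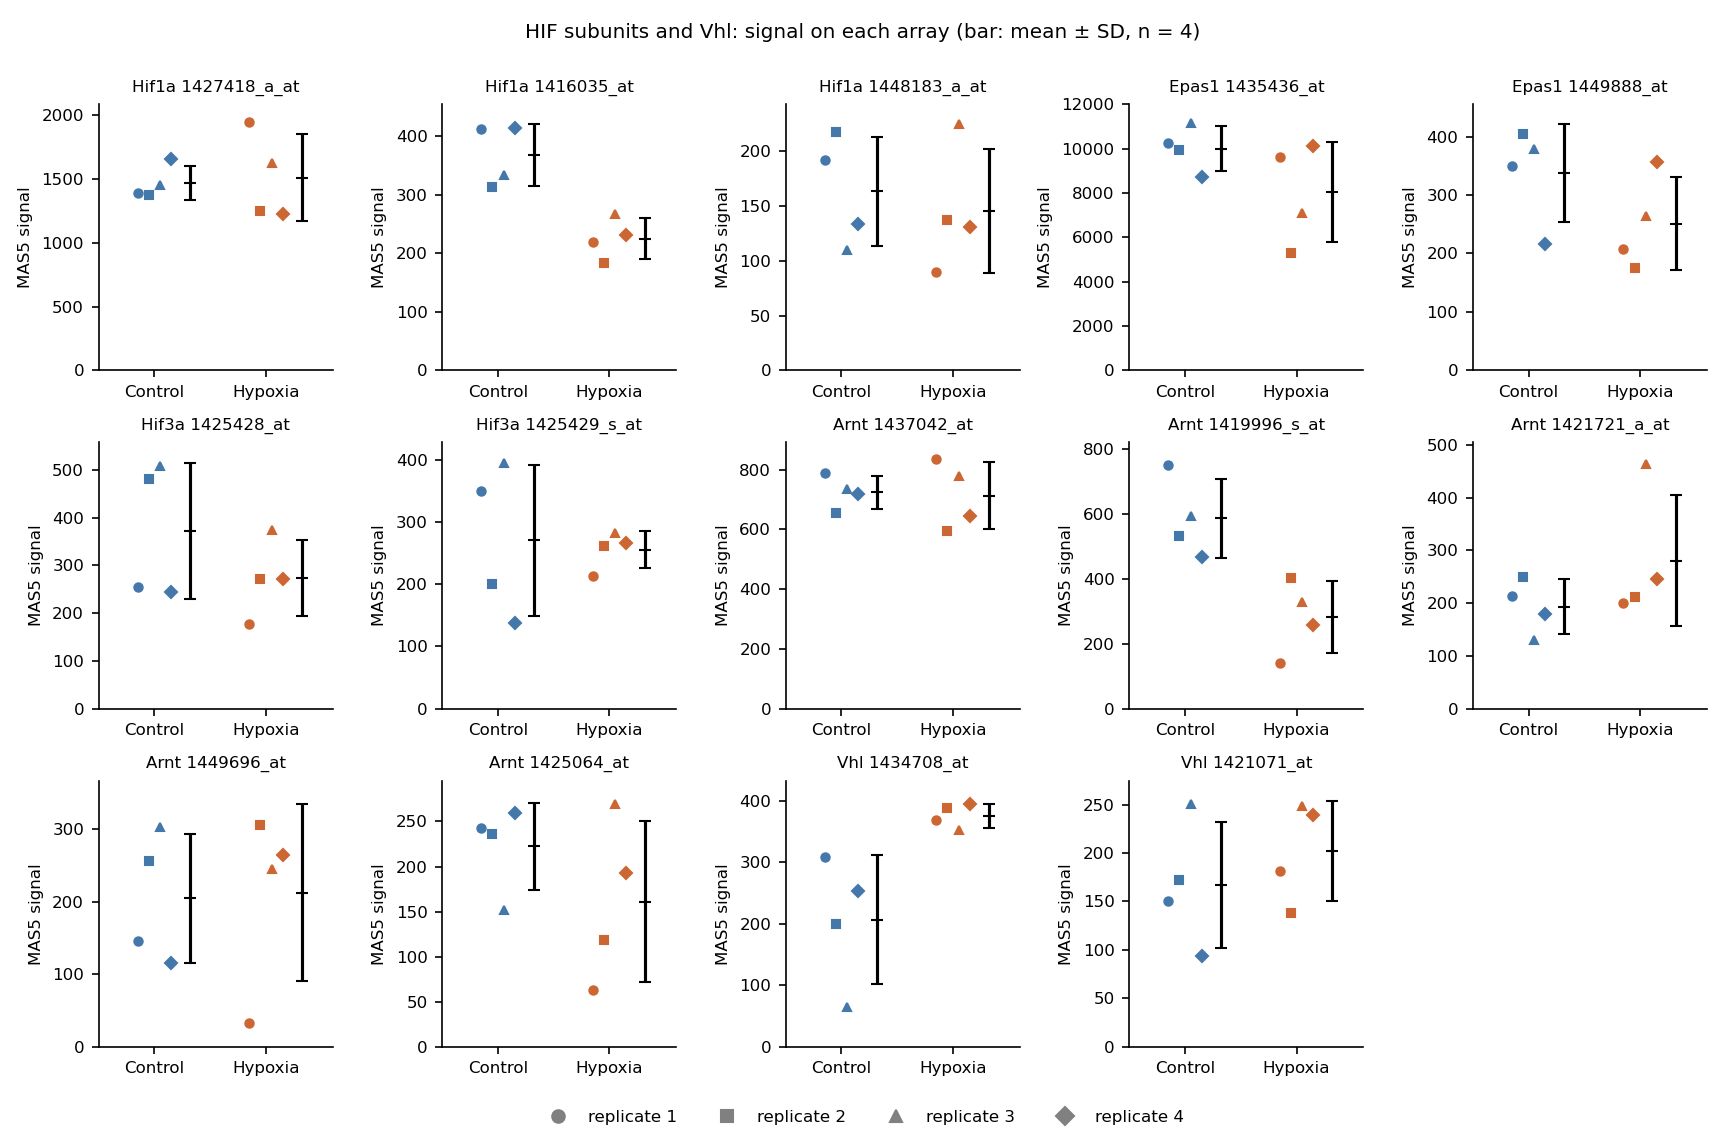
MAS5 signal (y axis, linear, from 0) of each array is plotted for the 14 tested probe sets of Hif1a, Epas1, Hif3a, Arnt and Vhl in control and hypoxia (x axis), with the replicate number as the symbol and the mean ± SD of 4 arrays beside each group. The groups are separate on 1 probe set each of Hif1a (at most 267.6 in hypoxia, at least 312.9 in control), Arnt (402.5 and 466.7) and Vhl (at least 351.9 in hypoxia, at most 309.6 in control), and overlap on the other 11.

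The other genes of the pathway were described by lists chosen with earlier results of these data known, 68 distinct tested genes in all, by the brightest probe set of each gene. Of all genes tested in this way 14% were called higher and 17.8% lower, with a median change of -0.042. Of the Vhl ligase partners, 1 of 3 tested genes fell and none rose (median -0.46). The median was -0.29 without control 4 and -0.16 with no filter, and 2 genes were called lower without control 1. The gene that fell was Cul2, the cullin scaffold of the ligase, from 2815 ± 166 to 1794 ± 118 (SD, n = 4 per group), a change of -0.65 ± 0.13 (SE, adjusted p = 0.00258 by limma), and its other tested probe set, at -0.35, was not called. The adaptors Elob and Eloc, which join Vhl to the cullin, were at -0.46 and 0.13 and were not called.

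Among HIF cofactors and regulators 5 of 12 tested genes rose and 1 fell (median 0.44, or 0.52 after quantile normalization). Siah1a, a ubiquitin ligase known to target Egln enzymes, rose 3.12-fold from 808 ± 233 to 2537 ± 614 (SD, n = 4 per group, adjusted p = 0.000212 by limma), and its other 2 probe sets also passed at 0.96 and 1.85. Siah1a was read by a probe set that can also bind related transcripts. Mtor, a kinase that promotes Hif1a translation, rose 2.52-fold from 1443 ± 157 to 3767 ± 1119, while its other probe set, at 0.54, was not called. Cited4, which competes with HIF for its coactivators, was called lower, at 361 ± 137 in control and 46.8 ± 30.9 in hypoxia. The hypoxia mean is under the filter signal of 90.2, so Cited4 passed the filter only through the control group and no fold is given. With the 60% filter no gene of the list was called lower. The other rises, named after their values were seen, were Cited2, which also competes for the coactivators (1.51, with another probe set at 0.34 that did not pass), Crebbp (1.02) and the chaperone Hsp90aa1 (0.59). The other probe sets of Crebbp were at -0.68, passing, and -0.18, not passing. Those of Hsp90aa1 were at -0.42, -0.35 and 0.12, none passing. Both changes are therefore uncertain.

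Among other oxygen-dependent hydroxylases and demethylases 2 of 20 tested genes rose and 8 fell (median -0.23, or -0.15 after quantile normalization). With single arrays left out the median ran from -0.37 without control 2 to -0.12 without hypoxia 2, and it was -0.14 without control 1. P4ha1, which hydroxylates prolines of collagen, fell 2.42-fold from 628 ± 74.0 to 258 ± 80.9 (SD, n = 4 per group, adjusted p = 0.00113 by limma). The histone demethylase Kdm2b fell 2.23-fold on a probe set that can also bind related transcripts, and its other tested probe set, at -1.06, also passed. Kdm3a, a histone demethylase known as a HIF target, rose 2.21-fold from 586 ± 60.9 to 1329 ± 251 (adjusted p = 0.000382 by limma). The other rise was Kdm6a (0.86), named after its value was seen, with another probe set at -0.36 that did not pass. Of the fibroblast marker genes 8 of 8 were called lower, and their summed signal was 50401 to 56700 in control and 14865 to 19765 in hypoxia. The part of fibroblast content in the values of this list was not tested.

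Among 27 tested genes known as HIF targets, 8 rose and 9 fell, with a median of -0.0077 (-0.045 after quantile normalization, 0.075 after median centring). With single arrays left out the median ran from -0.26 without control 3 to 0.049 without hypoxia 2, and it was -0.20 without control 1 and -0.16 without hypoxia 1. Of the 27 genes, 3 (P4ha1, P4ha2 and Kdm3a) are also in the list of hydroxylases and demethylases. Pdk1, the kinase that restrains pyruvate dehydrogenase, rose 2.16-fold from 884 ± 142 to 1930.2 ± 304 (SD, n = 4 per group, adjusted p = 0.000360 by limma). Its other probe sets changed by 0.48 and -0.78, both passing, so the change of Pdk1 is uncertain. Ldha, a lactate dehydrogenase subunit, fell 3.93-fold from 43856 ± 3646 to 11147 ± 827 (adjusted p = 5.15e-07 by limma), and Tfrc, the transferrin receptor, fell 4.22-fold from 7469 ± 1809 to 1820 ± 677 (adjusted p = 0.000103 by limma). The rise of Egln3 thus stood beside targets that rose and targets that fell.

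**Figure D4:**
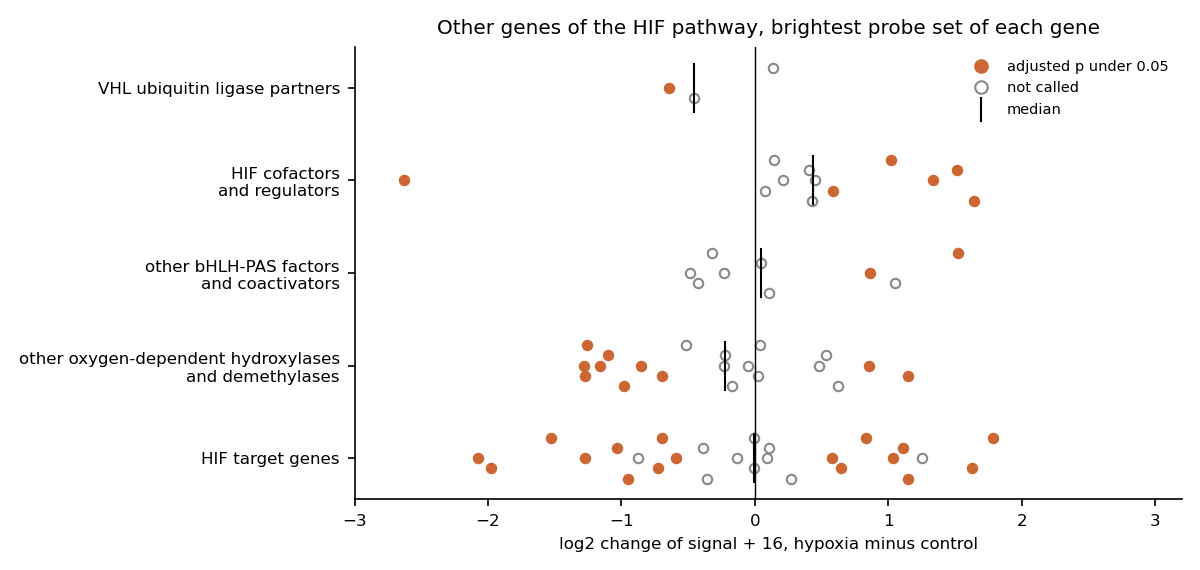
The log2 change of hypoxia minus control (x axis, signal plus 16) is plotted for each tested gene of the 5 pathway lists (y axis). Filled points passed an adjusted p of 0.05 by limma, open points did not, and the bar is the list's median. The list medians run from -0.46 for the Vhl ligase partners to 0.44 for the cofactors and regulators, and HIF targets lie on both sides of 0.

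The genes with the pattern most like that of Egln3 and of Hif1an were found by the root mean square distance between centred log2 values over the 8 arrays. Nearest to Egln3 were probe sets of Myo5a (a distance of 0.19 on the log2 scale), Ifi30 (0.22), Tmem106b (0.23), Tbc1d15 (0.26) and Ctnnbl1 (0.28), which changed by 1.86 to 2.50. The brightest probe set of Tmem106b did not follow (-0.38), and those of Myo5a disagreed in size (2.17, 0.71 and 0.11). Nearest to Hif1an were Tmem141 (0.11), Gtf2h4 (0.11), Cdc37 (0.12), Tpgs1 (0.12) and Lrp12 (0.13), which changed by -1.34 to -1.10. The distance includes the difference between the groups.

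The arrays also differed in RNA quality and in markers of cell types. For Gapdh the signal near the 3' end divided by that near the 5' end, which rises when RNA is broken, was 3.44 in hypoxia 1 and 0.776 to 0.874 in the other 7 arrays. For beta-actin it was 1.40 to 2.53 in hypoxia and 1.09 to 1.25 in control, so every hypoxia array was above every control array. By this ratio RNA quality and oxygen cannot be told apart, with or without hypoxia 1. Without hypoxia 1, Egln3 changed by 2.09 and Hif1an by -1.01 on their brightest probe sets, and both passed (adjusted p = 1.70e-05 and 0.00214 by limma). The tissue carried the markers of skeletal muscle fibres at high signal in both groups, and 10 of 12 of them were called lower in hypoxia, with a summed signal of 550608 to 649468 in control and 347829 to 478828 in hypoxia. That count was 6 without control 2, control 3 or hypoxia 2, and 3 after quantile normalization, where the median change of the list moved from -0.47 to -0.18. It was 4 after median centring, 3 with no filter, and 5 without the intensity trend. Of 10 macrophage markers, 1 was called higher (Cd68) and 2 lower (Adgre1 and Csf1r), with a summed signal of 12439 to 18467 in control and 10492 to 19626 in hypoxia. Without hypoxia 3 the number called lower was 5. None of the 3 tested erythroid markers was called by limma, and the erythroid sum was 776 to 1725 in control and 996 to 1400.4 in hypoxia. No marker was at 0, and the part of cell content in the Egln3 and Hif1an values was not tested.

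**Figure D5:**
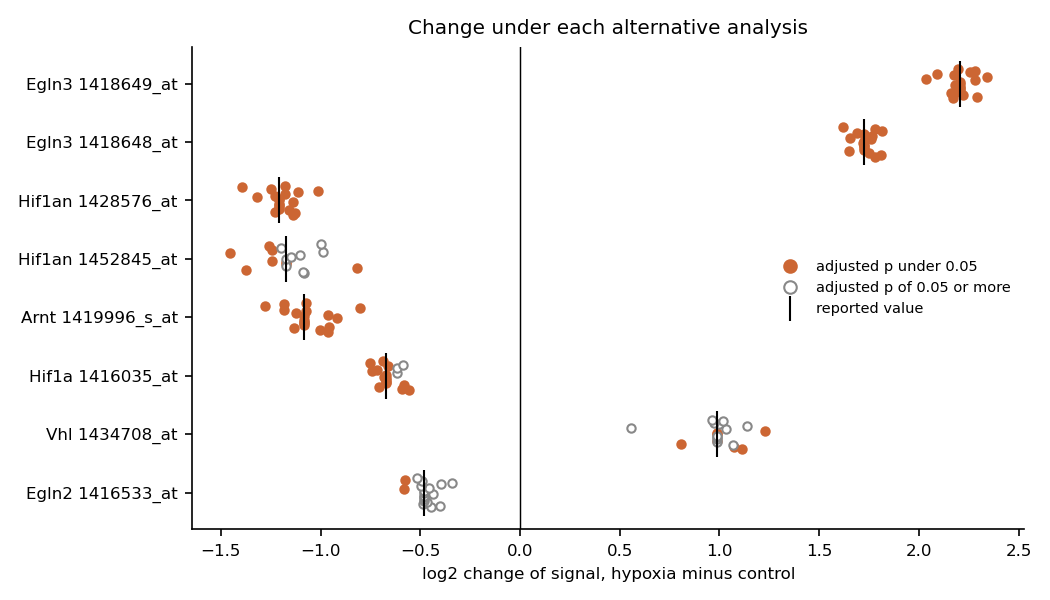
The log2 change of hypoxia minus control (x axis) of the 6 called probe sets and of the brightest probe sets of Vhl and Egln2 (y axis) is plotted under each alternative analysis. Filled points passed an adjusted p of 0.05, open points did not, and the bar is the reported value. The brightest probe set of Egln3 ran from 2.03 to 2.34 and that of Hif1an from -1.40 to -1.01, with every point filled, whereas those of Vhl and Egln2 were filled in 7 and 2 of 19.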

How the data were processed

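Quadriceps RNA of 4 Control and 4 Hypoxia samples was measured on Affymetrix mouse arrays. For each array the authors deposited intensities on a linear scale, which are MAS5 signals according to the submitters' processing notes, with version, detection calls and filters not given in the sources used here. Each array's 2% trimmed mean was 500.0, so the deposited scaling was kept. Groups came from the sample titles. The 64 control probe sets and then the dimmest 40% by mean log2 signal over the arrays were not tested (about 90.2 in signal), which left 27022. Signals were transformed to log2(signal + 16), which understates the change of dim probe sets, and tested two-sided with limma 3.58.1 in R 4.3.3 (lmFit, eBayes with an intensity trend, no block), adjusted over the 27022 probe sets by Benjamini-Hochberg at 0.05. A gene's main value is its brightest probe set. Of the annotated probe sets 34958 had 1 symbol and 932 several. Old symbols were updated through gene identifiers (GRCm38.p6).

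All probe sets of the 9 members are reported. From each list up to 3 called genes with the smallest p are named, and the 5 nearest genes to the members with the largest rise and fall, leaving out provisional symbols. The members and lists were chosen with earlier results of these data known. Paralogue pairs were tested by exact permutation over the 8 arrays. The procedure was tested on simulated data of 27022 probe sets, with 50 each changed by 0.5, 1, 2 or 4 on the log2 scale. It recovered 0%, 36%, 78% and 92% of these, with 6 false calls. In the real data 28.8% of probe sets were called, far more than were changed in the simulation. The simulated shares therefore cannot be carried over to the data. Alternatives changed the scaling (quantile normalization, or centring on the median), the pseudocount (1 or 64) and the filter (none or 60%), or used eBayes without the trend or robust, array weights, 1 probe set per gene, the replicate block and leaving out each array. The number of arrays limits the precision.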

Additional observations from a re-analysis of the deposited data

Results flagged for a closer look

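Among 58 groups of 4 arrays examined, 3 held an array far from the other 3, and chance flags about 1 in 20 groups. All 3 concern hypoxia 1. On the Arnt probe set at -0.17, hypoxia 1 read 32.9, while hypoxia 2, 3 and 4 read 245.6 to 305.7. Its gap was 0.890 of the group's range. Without it that probe set was at 0.47 and was not called (adjusted p = 0.295 by limma). The Gapdh 3' to 5' ratio of hypoxia 1 was 3.44, with a gap of 0.972 of the range, and its beta-actin ratio was 2.53, with a gap of 0.837. These 2 gaps were taken on the ratios without a log.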

How the results depend on the processing

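Both Egln3 probe sets, the brightest of Hif1an and the called one of Arnt kept their direction and passed in every alternative in which they were tested (19 each for the brightest probe sets, 18 for the others). The dim Hif1an probe set lost its call in 9 of 17 and that of Hif1a in 3 of 18, while Vhl passed in 7 of 19 and Egln2 in 2 of 19. The members called lower, 4 in all, were 1 when each gene was read by its brightest probe set alone, and 2 to 5 when single arrays were left out, with 2 without control 4 or hypoxia 2. With 1 probe set per gene 1959 were higher and 2489 lower over the array, since fewer probe sets are tested. Values near 0 that never passed changed sign: the brightest Hif1a probe set with array weights (-0.066) and with arrays left out (-0.11 to 0.11), the Hif1a probe set at -0.17 with arrays left out (-0.38 to 0.015), the second of Hif3a (-0.24 to 0.23), the brightest of Arnt after quantile normalization (0.083), median centring (0.051) and with arrays left out (-0.11 to 0.050), and the Arnt probe set at -0.17 with array weights (0.17) and with arrays left out (-0.44 to 0.47). The difference of Epas1 minus Hif3a was -0.15 after quantile normalization, -0.014 with a pseudocount of 64 and -0.25 to 0.23 with arrays left out, and that of Egln1 minus Egln2 was -0.073 to 0.47. The cause was not tested. Control and hypoxia samples of the same replicate number did not deviate alike over the tested probe sets (correlations from -0.074 to 0.0068). Whether the samples were paired cannot be decided from these correlations. With the replicate block 3 member probe sets were higher and 3 lower (2952 and 3930 over the array).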

Other observations

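Among other transcription factors of the family to which the HIF subunits belong, and their coactivators, 2 of 9 tested genes rose and none fell by limma (median 0.046). The median was -0.11 without hypoxia 1, when 1 gene fell, and -0.11 without control 3. Sim2, a relative of the HIF alpha subunits that also pairs with Arnt, rose 2.88-fold from 390.0 ± 42.8 to 1279 ± 630 (SD, n = 4 per group, adjusted p = 0.00327 by limma), and a second Sim2 probe set, at 0.46, was not called. Clock, the partner of the circadian factor Bmal1, changed by 0.86 on its brightest probe set, but other probe sets of Clock changed by -0.81, -0.73 and 0.49, of which the first 2 passed, so its direction is uncertain. Arnt2, the paralogue of Arnt, changed by -0.49 ± 0.28 (SE) and Ahr, the dioxin receptor, by 0.11 ± 0.19, and neither passed.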
